A study of Mus musculus with 19 samples.

Results

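The transcription factor SOX3 gave 1367 peaks in mouse glial progenitor cells (GPC), and 668 of them (48.9%) shared no base with a SOX9 or NFIA peak and lay at most 100 kb from the start site of a gene. These SOX3-only peaks were selected on the authors' own peak positions and distances, so their lack of overlap and their nearness to genes describe the choice and are not results. The authors' list pairs the 668 peaks with 559 genes. A further 236 SOX3 peaks within 100 kb (17.3% of the list) shared bases with SOX9 or NFIA, and 333 SOX3-only peaks (24.4%) lay beyond 100 kb.

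The cells came from mouse embryonic stem cells (ESC) that were kept without feeder cells and turned towards a neural fate in N2B27 medium with all-trans retinoic acid. GPC were pulled out at day 8 with magnetic beads against A2B5, a surface antigen of glial precursors, and grown on fibronectin with EGF and FGF2. Chromatin immunoprecipitation and sequencing (ChIP-seq) was made on 2 SOX3, 3 SOX9 and 2 NFIA samples, all from GPC, and each factor has 1 peak list. RNA was sequenced from 4 GPC libraries and from 3 libraries of ESC-derived glial cells, called glia below. The labels give glia the same culture text as GPC, so how they were made is unknown, and no ChIP-seq list of glia was used here. No genotype, transgene or treatment that separates the groups is stated.

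SOX3 is a SOXB1 protein, a close relative of SOX1 and SOX2. These proteins bind the minor groove of DNA through an HMG box, read short sites with an ACAAT or ACAAAG core, and often act together with a partner factor such as a POU protein. SOXB1 proteins are known for keeping neural precursors undifferentiated, and SOX9 and NFIA are known for starting the glial programme.

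The promoters below belong to 4 of the 10 genes whose SOX3-only peak had its centre nearest a start site, and they show what sequence lies at such starts, with and without the cores. They were chosen after their sequences were seen, and Hmgb1, Top3a and Cp, which had closer peaks than Mlc1, Wbp1 and Rfx4, are not printed. Each run holds the 250 bases before a start site from RefSeq (assembly GRCm38.p6), 5′ to 3′ on the strand of the gene. Capitals mark ACAAT or ACAAAG on either strand, so ATTGT and CTTTGT are the same cores read from the other strand. Sfpq is on chr4:127021051-127021300, plus strand, Mlc1 on chr15:88978554-88978803, minus strand, and Wbp1 on chr6:83121462-83121711, minus strand. Rfx4 has 2 such windows, both on the plus strand, at chr10:84755798-84756047 and chr10:84837898-84838147, and the sources used here do not tell which start the authors measured from.
Sfpq: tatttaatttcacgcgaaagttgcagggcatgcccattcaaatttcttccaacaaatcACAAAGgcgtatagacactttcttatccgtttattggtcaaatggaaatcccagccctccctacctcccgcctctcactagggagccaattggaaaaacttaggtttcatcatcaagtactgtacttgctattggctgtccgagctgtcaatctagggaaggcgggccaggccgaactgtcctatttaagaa
Mlc1: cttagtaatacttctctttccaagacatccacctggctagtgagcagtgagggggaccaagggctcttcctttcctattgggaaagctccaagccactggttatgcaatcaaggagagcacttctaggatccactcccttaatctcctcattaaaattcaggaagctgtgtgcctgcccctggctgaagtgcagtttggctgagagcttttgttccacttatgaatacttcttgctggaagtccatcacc
Wbp1: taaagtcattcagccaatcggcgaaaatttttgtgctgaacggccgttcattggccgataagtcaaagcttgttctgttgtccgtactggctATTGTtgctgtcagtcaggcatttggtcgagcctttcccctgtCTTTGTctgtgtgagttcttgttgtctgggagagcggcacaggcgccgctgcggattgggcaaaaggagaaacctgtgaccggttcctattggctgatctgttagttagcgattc
Rfx4 window 1: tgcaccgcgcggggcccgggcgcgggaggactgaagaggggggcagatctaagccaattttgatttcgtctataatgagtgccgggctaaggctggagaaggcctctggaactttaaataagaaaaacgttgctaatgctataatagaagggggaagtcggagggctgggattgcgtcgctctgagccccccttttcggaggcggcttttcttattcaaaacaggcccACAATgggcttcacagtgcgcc
Rfx4 window 2: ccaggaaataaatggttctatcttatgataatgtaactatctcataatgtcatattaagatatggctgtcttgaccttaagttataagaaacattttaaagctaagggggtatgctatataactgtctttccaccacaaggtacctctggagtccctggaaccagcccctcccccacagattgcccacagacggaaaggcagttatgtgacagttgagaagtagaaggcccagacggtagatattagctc

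The Sfpq window held ACAAAG starting 192 bases before the start, on the strand of the gene. Wbp1 held both cores on the other strand, ACAAT 158 and ACAAAG 115 bases before the start. In Rfx4 the first window held ACAAT 22 bases before its start, and neither core was present in the second window or in that of Mlc1. The cores are short and common, and ACAAT or ACAAAG occurred in 38.8% of all 32851 RefSeq windows of this length. Among the 515 windows of the 387 member genes that have one the share was 29.9%. For 11 members the peak centre lay between 250 bases before and 50 after a start. The 10 of their genes found among the RefSeq windows have 16 windows in all, of which 8 held a core. Where a gene has several windows, not every one can hold the peak. By the authors' distance the centre of the Sfpq peak, 13 bp downstream, lies just past the printed bases. The peak itself, 144 bp wide, reaches into them. The octamer ATGCAAAT, the site of POU factors of the OCT kind, was in 1.60% of all windows and 1.55% of those of member genes. TTGGC, the core letters of NFI sites, was in 41.5% and 41.9%; none of these motifs contains another, and both strands were searched for each. These matches describe letters in a window and no binding. The peaks themselves are given in mm9, whose sequence was not used here, so the sequence under the distal peaks was not analysed here.

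Most SOX3-only peaks were distal. The median distance from the paired start site was 26458 bp, the middle 50% lay between 10502 and 51719 bp, and the extremes were 13 and 99807 bp. Only 26 peaks (3.89%) had their centre within 1 kb of a start, 135 (20.2%) lay at 1 to 10 kb, 331 (49.6%) at 10 to 50 kb and 176 (26.3%) at 50 to 100 kb. Upstream positions made up 313 of 668 (46.9%). The peaks that shared bases with SOX9 or NFIA had a median distance of 26656 bp, with 23.7% within 10 kb against 24.1% of the SOX3-only peaks.

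The SOX3-only peaks were narrow. Their median width was 162 bp (quartiles 131 and 212 bp, range 65 to 1650 bp), against 207.5 bp (quartiles 152.5 and 284.5 bp) for the 236 shared peaks within 100 kb and 147 bp for the 333 SOX3-only peaks farther out. A width of 300 bp or more was found for 74 of 668 SOX3-only peaks (11.1%), 52 of 236 shared peaks (22.0%) and 24 of 333 SOX3-only peaks beyond 100 kb (7.21%). A wider peak can share a base with another list more easily than a narrow one, so the choice by overlap bears on width and these figures are a description with no test. The list carries no height or enrichment for SOX3 peaks.

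**Figure D1:**
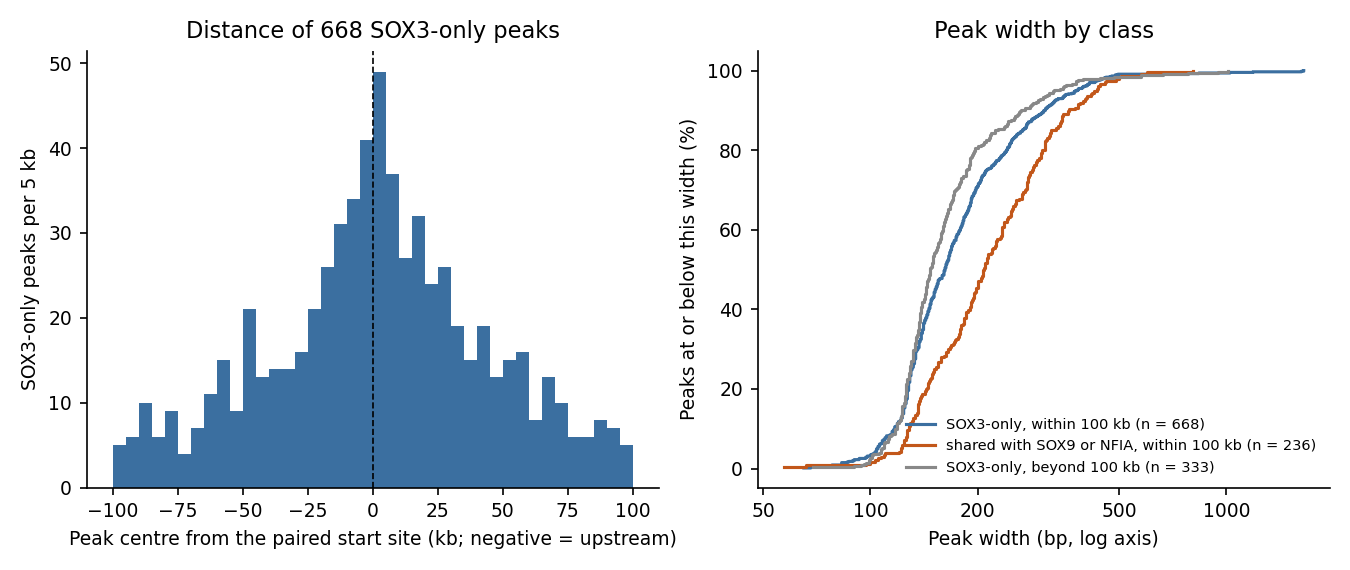
Left, number of SOX3-only peaks in bins of 5 kb by signed distance of the peak centre from the paired start site in kb. Right, cumulative percent of peaks by width in bp (log axis) for the 668 SOX3-only peaks within 100 kb, the 236 shared peaks and the 333 SOX3-only peaks beyond 100 kb. The SOX3-only curves lie to the left of the shared curve, with medians of 162 and 147 bp against 207.5 bp.

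By the choice no NFIA or SOX9 peak lay on these peaks, but some lay near them. An NFIA peak lay within 100 kb of 488 of the 668 peaks (73.1%), within 10 kb of 133 (19.9%) and within 500 bp of 20. A SOX9 peak lay within 100 kb of 176 (26.3%), within 10 kb of 23 and within 500 bp of 2. The NFIA list is longer (14164 peaks against 2943 for SOX9), which bears on these shares. No such share was computed for random positions, so these figures only describe nearness. At the level of genes, 97 of the 559 genes also had a SOX9 peak within 100 kb. A SOX3 peak shared with SOX9 or NFIA was also present for 29. Of the genes described below, both held for instance for Ednrb (4 SOX9 peaks), Slc1a3 (3) and Rfx4 (1). Ptprz1 and Nuf2 had 2 SOX9 peaks each within 100 kb, and Sox5, Cd44 and Shh 1 each. These names are examples and not a full list. SOX3-only is thus a trait of the peak and not of the gene.

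At the edge of the 100 kb choice, the last peaks taken were paired with C230081A13Rik (99302 bp downstream of the start, 180 bp wide), Arhgap32 (99601 bp upstream, 139 bp) and Tspan3 (99807 bp upstream, 374 bp). The first ones left out were paired with Cobll1 (100394 bp downstream, 144 bp), Kdr (100421 bp downstream, 119 bp) and Fam78b (100686 bp upstream, 168 bp).

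The peaks were not spread evenly. Joining members that lie at most 100 kb apart gave 530 runs, of which 470 held 1 peak, 45 held 2 and 15 held 3 or more, with 108 peaks in the last class. The 6 runs with 5 or more members held 80 peaks (11.98%). Chromosome 4 had 90 members, the most of any chromosome, and 54 of these sat in 3 runs that together span 528 kb. The remaining 36 members on chromosome 4 lay elsewhere on it. Chromosome X had 1 member of 3 SOX3 peaks, beside 68 SOX9 and 1055 NFIA peaks.

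The longest run, chr4:146710283-146981836 (mm9), held 21 SOX3-only peaks paired with Gm13145, Gm13152, Gm16503 and 2610305D13Rik. A second, chr4:145006387-145168788, held 20 peaks paired with Gm13225, Gm13242 and Gm13212, and another, chr4:145668626-145762496, held 13 paired with Gm13247 and Gm13251. RefSeq names several of these as zinc finger genes, a class that is known to stand in tandem copies: Gm13145 is Zfp978, Gm13152 is Zfp982, Gm13225 is Zfp990, Gm13242 is Zfp980, Gm13247 is Zfp981, Gm13251 is Zfp992 and 2610305D13Rik is Zfp979. With Gm13051 (Zfp987) and Gm13157 (Zfp984), 9 of the 17 run and multi-peak genes looked up carry a Zfp name, and 47 member peaks were paired with them.

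The other long runs lay beside multi-copy or lineage-restricted genes of other kinds. On chr1:173439697-173499058 there were 10 peaks with a median width of 362.5 bp, paired with Gm9765, the intelectin gene Itln1 and the immune receptor gene Cd244. St6galnac1, which encodes a sialyltransferase, had 8 peaks on chr11:116606184-116627000, and the prolactin family genes Prl2c2 and Prl2c3 had 8 on chr13:12899585-13033496. Ighv1-73, an immunoglobulin variable segment, had 4 peaks over 31841 bp. A further 22 SOX3-only peaks paired with it lay beyond 100 kb and so are not members. Short runs of 3 peaks stood at P4ha2, within 753 bp, and at Stard13, within 1277 bp, each listed by the authors as separate peaks.

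The spans of the 6 long runs held 49 NFIA peaks and 1 SOX9 peak. Of the 6 members at least 500 bp wide, 5 lay in these runs: 1 each of St6galnac1 (723 bp), Gm13212 (837 bp) and Gm13251 (1024 bp) and 2 of Gm16503 (1188 and 1650 bp). The last was paired with Gm13051, at chr4:146022857-146024481, 1625 bp wide. The narrowest member, 65 bp, was paired with the pheromone receptor gene Vmn1r65. Reads of near-identical copies cannot be placed to 1 copy with certainty, and the authors' treatment of such reads is not stated in the labels, so peaks and expression of these genes are uncertain.

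**Figure D2:**
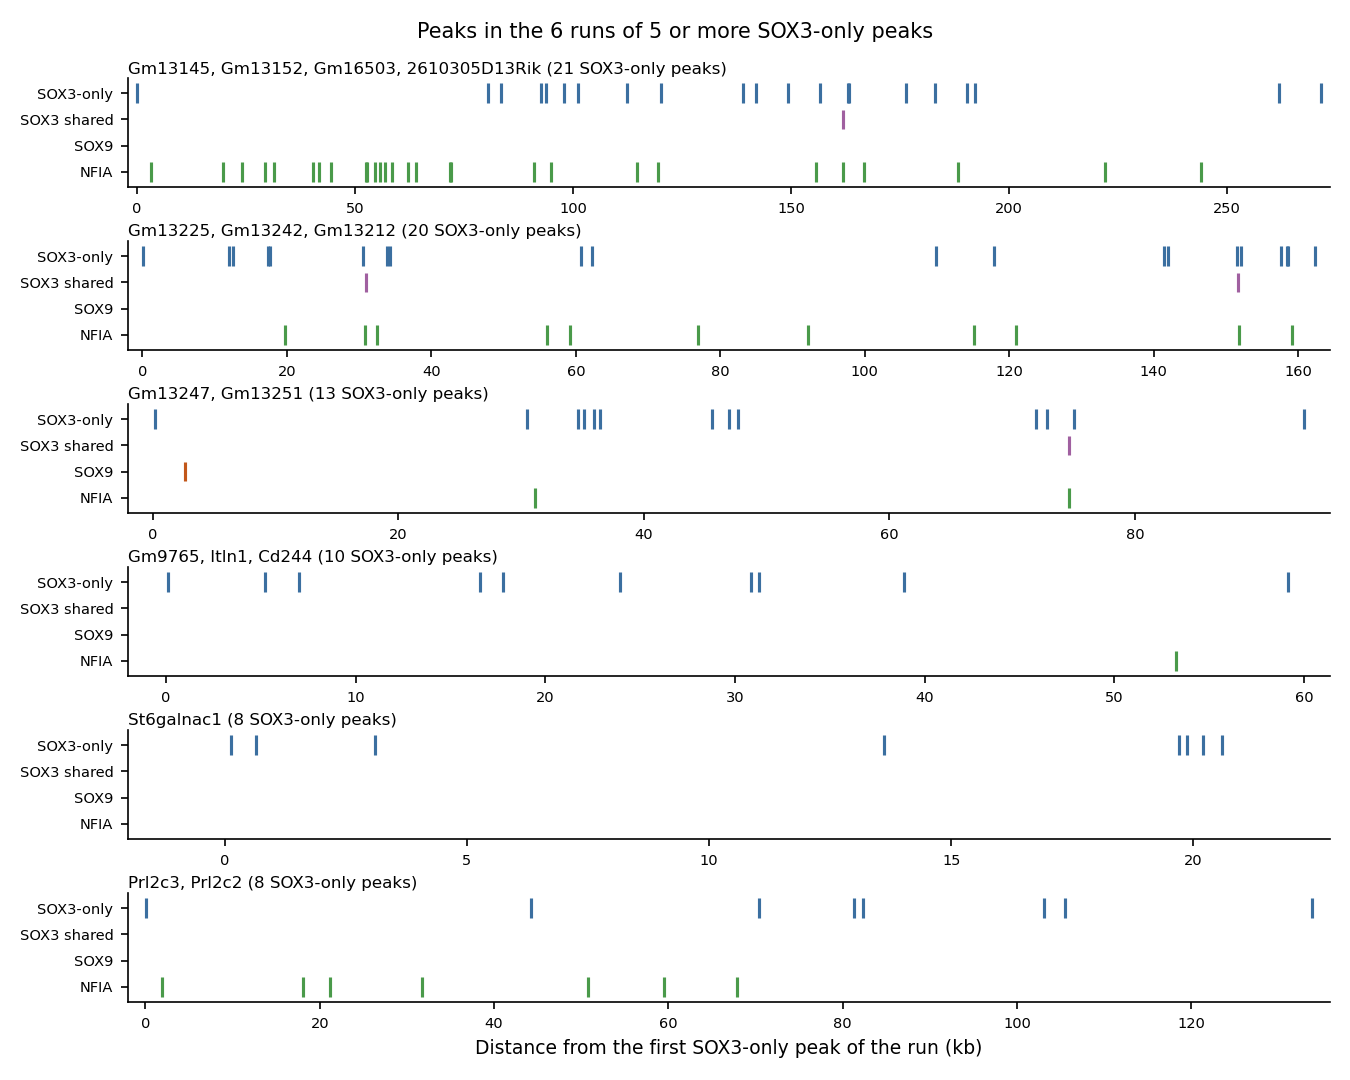
Positions of SOX3-only, other SOX3, SOX9 and NFIA peaks (vertical ticks) in the 6 runs of 5 or more SOX3-only peaks, as kb from the first SOX3-only peak of the run. The 3 upper panels are the chromosome 4 runs with 21, 20 and 13 SOX3-only peaks, and the SOX9 row holds 1 tick in all.

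Few reads were counted for the genes of these runs. Of their 15 genes, 4 had no line in the expression table (Gm13145, Gm13225, Gm16503 and Gm9765). Of the other 11, none reached the filter for testing, and 2 had no read in any of the 7 libraries. Whether reads of near-identical copies were dropped in counting is not known. Summed over the 7 libraries Gm13251 had 59 reads, 2610305D13Rik 46, Gm13247 11, Gm13152 4, St6galnac1 3, Itln1 1 and Prl2c3 none. Levels of these genes in GPC and in glia were therefore not compared.

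Expression is given as RPKM (reads scaled to gene length and library size, the authors' values) for levels. Changes from GPC to glia are log2 fold changes with their standard error, from edgeR's quasi-likelihood test on the counts with Benjamini-Hochberg adjustment over all genes and a threshold of 0.05. The libraries held 6897294 to 22439837 counts in genes. GPC replicate 3, the deepest, stood apart from the other GPC libraries, and the chi-square per gene ran from 26.1 to 30.2 in its pairs and from 2.04 to 3.55 among the other 3. The labels do not say that replicates were separate cultures, and the p-values then reflect only how far these libraries differ, possibly for technical reasons. In bulk RNA, fewer cells of a type and less RNA per cell cannot be told apart.

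Markers of the neural and glial lineage were present in both groups. At least 1 RPKM in every library was reached by 23 of 28 neural progenitor markers in GPC and 26 in glia, by 19 of 20 oligodendrocyte precursor markers in either group and by 25 of 26 astrocyte markers in either group, so this count does not separate the labels. The summed RPKM of the neural progenitor list was 7777 to 8246 in GPC and 4271 to 4326 in glia, and that of the astrocyte list 2449 to 2957 and 10933 to 13370. All 20 markers of maturing oligodendrocytes rose, with a summed RPKM of 204 to 258 in GPC and 2147 to 3041 in glia. Markers of other cell types were present too: the summed RPKM of that list of 33 genes was 116 to 129 in GPC and 452 to 542 in glia, led by the collagen gene Col1a1 (51.3 ± 8.95 RPKM, SD, n = 4, against 191 ± 14.9, n = 3). In that list 15 genes stayed below 1 RPKM in every library, and Cx3cr1, Pou5f1, Sox17 and Zfp42 were at 0 throughout. Its part in the changes below was not tested.

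A larger share of the genes paired with SOX3-only peaks than of the table as a whole was expressed, as was so for the genes of the other SOX3 peaks. Of the 559 genes, 519 were found in the table by symbol and 13 by a synonym, while 27 had no match, which gave 531 lines because D130058E05Rik and Gbx2 lead to the same line. At least 1 RPKM in every GPC library was reached by 362 of 531 (68.2%), against 50.7% of all lines, and the median RPKM in GPC was 8.28 against 1.52. The same share was 76.7% for genes of shared SOX3 peaks (median 14.8 RPKM) and 66.8% for genes of SOX3-only peaks beyond 100 kb (median 6.56). In glia 378 (71.2%) reached it in every library, against 53.7%, with a median of 8.87 against 2.34.

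Of the 531 lines, 402 had enough reads to be tested, while 45 had none at all. From GPC to glia 153 rose, 149 fell and 100 passed the test in neither direction. Over all 13588 genes tested 35.2% rose and 35.2% fell, so the shares of 38.1% and 37.1% among the tested member genes were near the background. A change of at least 2-fold was called upward for 80 (19.9%, against 16.5% of all genes) and downward for 41 (10.2%, against 9.24%). The median log2 change was −0.03 for the member genes and 0.00 over all genes. Of the 302 calls, 266 kept call and direction when each library was left out in turn.

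The balance of calls of any size varied with distance. Where the nearest SOX3-only peak was within 1 kb, 5 of 21 tested genes rose and 11 fell, with a median log2 change of −0.26. At 1 to 10 kb 24 of 72 rose and 33 fell (median −0.24), at 10 to 50 kb 80 of 198 rose and 69 fell (median −0.02), and at 50 to 100 kb 44 of 112 rose and 37 fell (median 0.06). Within 10 kb together 29 of 93 genes rose (31.2%) and 44 fell (47.3%), with a median of −0.25. Over all genes tested 35.2% rose and 35.2% fell. Among changes of at least 2-fold, rises outnumbered falls at every distance. They were 5 against 2 within 1 kb and 13 against 8 at 1 to 10 kb. Farther out they were 37 against 20 at 10 to 50 kb and 25 against 11 at 50 to 100 kb. The shares over all genes were 16.5% and 9.24%. These differences between distances carry no test.

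Genes of shared SOX3 peaks gave a similar picture: 61 of 173 tested rose (35.3%) and 66 fell (38.2%), with a median of 0.01. For SOX3-only peaks beyond 100 kb 78 of 203 rose and 64 fell. Among the member genes, those that also had a SOX9 peak within 100 kb rose in 29 and fell in 29 of 80 cases, and those without one in 124 and 120 of 322. No difference between these sets was tested.

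**Figure D3:**
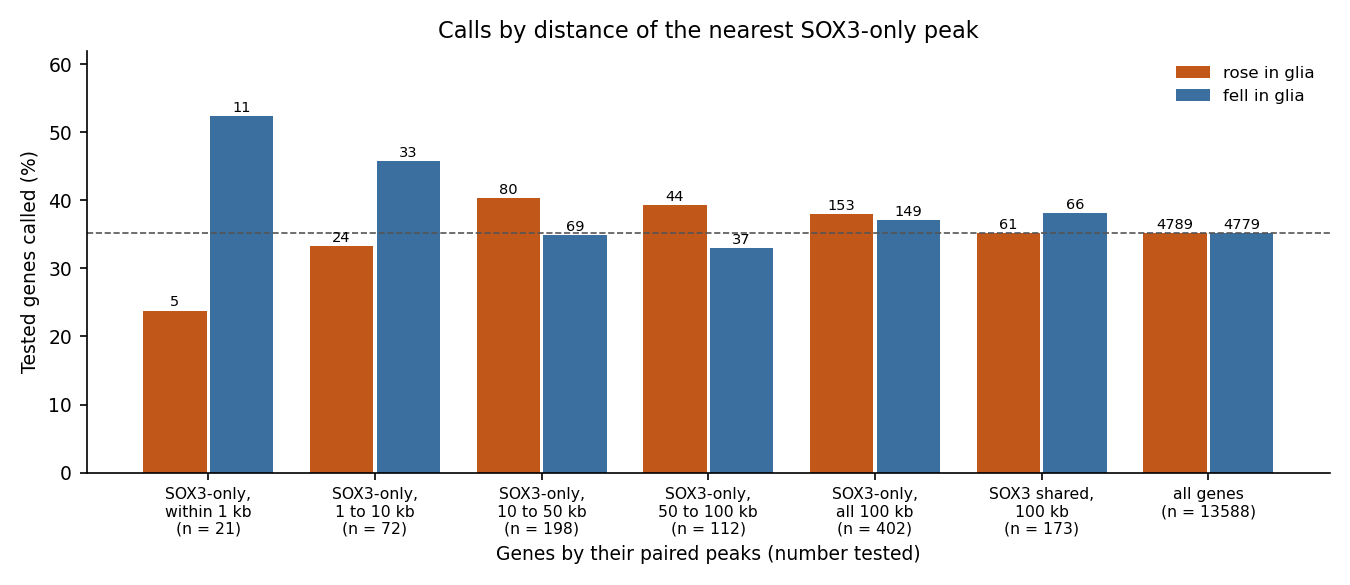
Percent of tested genes that rose (orange) or fell (blue) from GPC to glia, by the distance of their nearest SOX3-only peak, with genes of shared peaks and all genes for comparison; numbers above bars are genes, and the dashed line is the percent of all genes that rose. Calls of any size are shown. Fell exceeds rose in the bins within 1 kb (11 against 5) and at 1 to 10 kb (33 against 24). In the distance bins beyond, rose exceeds fell.

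Some transcription factor genes of neural precursors were members. Of the 19 SOX genes measured, 2 (10.5%) were members, Sox2 and Sox5. Of 15 POU genes 2 (13.3%) were, Pou2f1 and Pou3f3, and of 4 nuclear factor I genes none. The bHLH genes Hes3 and Id3 were members too. Member genes make up 2.37% of the symbols of the table, and no difference from this share was tested. The list of neural progenitor markers had 5 of 28 genes with a SOX3-only peak, of which 3 rose (Ednrb, Msi1, Sox2) and 2 fell (Pou3f3, Rfx4). Over the whole list 8 of 28 rose and 15 fell, and no difference was tested. The list of 32 neuron markers and the list of 20 markers of maturing oligodendrocytes had none.

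Sox2, the SOXB1 gene that maintains neural stem cells, had 2 SOX3-only peaks, at chr3:34552792-34552973, 3955 bp downstream of the start, and at chr3:34457954-34458337, 90782 bp upstream. Its RPKM was 141, 144, 163 and 152 in GPC and 186, 163 and 192 in glia. Levels were high in both groups and their ranges met at 163. The log2 change was 0.24 ± 0.08 (adjusted p = 0.0273, edgeR's quasi-likelihood test), and the call was lost without GPC replicate 1, 2 or 4 or glia replicate 1 or 3 (adjusted p 0.0603 to 0.109). Sox5, a SOXD gene active in glial precursors, had a peak 54240 bp downstream, and it measured 4.56, 4.46, 3.94 and 4.95 RPKM in GPC and 3.11, 3.53 and 2.84 in glia. It fell by 0.54 ± 0.11 on the log2 scale, with no overlap between the groups.

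Pou3f3, a POU factor of neural precursors, had a peak at chr1:42685670-42685953, 68180 bp upstream. Its RPKM was 67.1, 66.2, 67.3 and 71.8 in GPC and 33.0, 30.5 and 37.8 in glia. The groups stood well apart, and it fell by 1.04 ± 0.08 on the log2 scale (adjusted p = 1.66e-06). Pou2f1, which encodes the broadly expressed OCT1, had a peak 35865 bp downstream and stayed between 2.84 and 4.30 RPKM in all 7 libraries, with a log2 change of −0.02 ± 0.16.

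Rfx4, a winged-helix factor needed for dorsal neural patterning and cilia, had a peak of 108 bp at chr10:84218656-84218763 whose centre was 98 bp upstream of the start. Its RPKM was 143, 143, 132 and 145 in GPC and 88.2, 93.4 and 87.4 in glia. Every GPC library was above every glia library, and it fell by 0.69 ± 0.06 on the log2 scale (adjusted p = 4.55e-06). These are the 2 start windows printed above, of which the first holds an ACAAT.

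Id3, an inhibitor of bHLH factors, had a peak 38515 bp upstream and measured 424, 374, 296 and 366 RPKM in GPC and 303, 230.1 and 337 in glia. The groups overlapped, and its log2 change of −0.36 ± 0.15 did not pass in edgeR's test (adjusted p = 0.0565). It passed there without GPC replicate 3 (0.0041) or without glia replicate 3 (0.0278). With DESeq2 it passed on all libraries (log2 change −0.37, adjusted p = 0.0228), so the call depends on the method too. Hes3, a bHLH repressor, had a peak 751 bp upstream and stayed at or below 1.61 RPKM in every library.

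Further transcriptional regulators were chosen after their values were seen. Hoxb3, a Hox gene of the hindbrain, had a peak centred 258 bp upstream and a mean RPKM of 41.9 ± 5.48 (SD, n = 4) in GPC and 14.3 ± 0.21 (n = 3) in glia. Foxb1, a forkhead gene of the caudal neural tube and diencephalon, had 2 adjoining peaks about 46 kb downstream and went from 8.56 ± 0.519 to 2.46 ± 0.523. Gbx2, a homeobox gene of the anterior hindbrain, had a peak 1526 bp upstream and went from 11.5 ± 1.06 to 7.25 ± 0.232. Hopx, a small homeodomain protein of radial glia, had 2 peaks 7263 and 7588 bp upstream and went from 173 ± 9.69 to 111 ± 4.46. These 4 fell with no overlap between the groups, and the log2 changes were −1.61, −1.78, −0.69 and −0.74. The homeobox genes Irx3 and Tgif1 did not pass (adjusted p = 0.081 and 0.237). Maf, a bZIP factor, had a peak 57572 bp upstream and rose from 1.78 ± 0.591 to 14.04 ± 0.229 RPKM.

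Msi1 encodes Musashi, an RNA-binding protein of neural stem cells, and had a peak 31040 bp upstream. Its RPKM was 33.6, 33.6, 45.8 and 33.9 in GPC and 59.3, 54.7 and 61.5 in glia. All glia libraries were above all GPC libraries, and it rose by 0.64 ± 0.12 on the log2 scale (adjusted p = 0.000767).

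Components of FGF signalling were chosen after their values were seen. The ligand FGF2 is named in the culture text that the labels give for both groups. Fgfr3, a receptor of astroglial precursors with a peak at chr5:34047993-34048232, 16261 bp upstream, measured 85.5, 77.3, 119 and 80.6 RPKM in GPC and 42.6, 41.7 and 46.2 in glia. Fgfr1, with a peak 26288 bp downstream, measured 69.0, 61.6, 66.3 and 65.6 against 40.7, 42.5 and 40.4. Both receptors were lower in every glia library and fell by 1.10 ± 0.14 and 0.70 ± 0.06 on the log2 scale. Fgf12, an intracellular FGF homologue that is not a receptor ligand, had a peak 46668 bp upstream and rose by 1.11 ± 0.16 from a mean of 1.11 RPKM to 2.48. Of the FGF pathway list, 3 of 31 genes had a SOX3-only peak, and over the whole list 8 of 25 tested genes rose and 15 fell.

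In the Notch pathway, Lfng had a peak at chr5:141087110-141087423, 3971 bp downstream of the start. It encodes the glycosyltransferase Lunatic fringe, which alters how Notch receptors respond to their ligands. Its RPKM was 112, 99.95, 96.6 and 104 in GPC and 26.6, 26.9 and 29.9 in glia. That was a fall by 1.92 ± 0.08 on the log2 scale (adjusted p = 1.96e-08) with no overlap. Maml3, a coactivator of the Notch complex with a peak 74987 bp upstream, measured 4.17, 3.52, 2.14 and 3.14 RPKM in GPC and 1.79, 2.19 and 1.51 in glia. It also fell, by 0.87 ± 0.22 on the log2 scale, although the lowest GPC library (replicate 3) was below the highest glia library. Both were chosen after their values were seen. Of the Notch list, which does not hold Maml3, 1 of 25 genes had a SOX3-only peak. Over the whole list 6 of 25 tested genes rose and 11 fell. In the Notch family assigned by symbol, 2 of 24 genes were members, Lfng and Maml3.

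Of the Wnt list, 3 of 33 genes had such a peak, and over the whole list 9 of 29 tested genes rose and 12 fell. The Wnt receptor gene Fzd3 had a peak 16836 bp downstream and rose from 14.04 ± 1.77 RPKM (SD, n = 4) to 29.9 ± 6.14 (n = 3), a log2 change of 1.05 ± 0.14. Fzd8, with a peak 3448 bp downstream, rose from 4.23 ± 0.236 to 5.86 ± 0.0677. Ctnnb1, which encodes beta-catenin, had a peak 66495 bp upstream, and its 462 ± 17.5 RPKM in GPC and 523 ± 21.0 in glia gave a log2 change of 0.14 that did not pass (adjusted p = 0.0788). Shh, the ligand that patterns the ventral neural tube, had a peak 9561 bp upstream but stayed below 1 RPKM in all 7 libraries. These genes were chosen after their values were seen.

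Genes of axon guidance, the ephrin, semaphorin, plexin and Robo families, counted 8 members of 75 in the table, and 6 rose, 1 fell and 1 did neither. This family was picked out after its values were seen. Over all 13588 genes tested 35.2% rose and 35.2% fell. Neither here nor for the adhesion genes below were calls counted over the whole family, and no difference was tested. Epha3, an ephrin receptor with a peak 57463 bp downstream, measured 0.459, 0.615, 1.11 and 0.63 RPKM in GPC and 17.3, 17.3 and 13.96 in glia, a rise of 4.40 ± 0.22 on the log2 scale. The other risers were smaller, with log2 changes of 1.06 for Epha7, 0.92 for the semaphorin receptor gene Plxna4, 0.43 for the ligand gene Efnb2, 0.41 for Sema6a and 0.40 for Nrp2. The Slit receptor gene Robo2 fell by 0.45, and its relative Robo1 had a log2 change of −0.08 (adjusted p = 0.611). Among immunoglobulin and leucine-rich adhesion genes, also picked out after their values were seen, 8 of 134 were members, and of 5 tested Igsf11 (2.51), Lsamp (1.16), Lrig1 (0.85) and Igsf9b (0.84) rose while Cadm1 (−0.94) fell.

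Members made up 1.30% of Zfp symbols, 1.69% of solute carriers and 7.81% of TGF-beta and BMP genes, against 2.37% of all symbols. Over all genes tested 35.2% rose and 35.2% fell, and no difference from these shares was tested. Of the 386 measured genes with a Zfp symbol, 5 were members, of which 3 of 4 tested fell (Zfp292, Zfp41 and Zfp532) and none rose. That count leaves out the 9 run and multi-peak genes with Gm or Rik symbols that RefSeq names Zfp. Of 354 solute carrier genes 6 were members, of which 1 of 4 tested rose and 3 fell. TGF-beta and BMP genes gave 5 members of 64 (Acvr1, Bmp2k, Inhbb, Smad6 and Tgfbr2), of which Bmp2k (1.15) and Smad6 (0.92) rose on the log2 scale and none fell. The 2 PAX members, Pax1 and Pax8, had too few reads to be tested. In all, 133 of the 559 genes fell in 1 of the 28 families looked at. Families were assigned by symbol alone, and the genes named here were chosen after their values were seen.

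Genes of astrocytes moved in both directions. The astrocyte list had 5 of 26 genes with a SOX3-only peak, of which Cd44 and Mlc1 rose, Fgfr3 and Slc1a3 fell, and Id3 did neither. Over the whole list 19 of 26 rose and 6 fell. Mlc1 encodes a membrane protein of astrocyte endfeet, and its peak of 336 bp at chr15:88809351-88809686 was centred 81 bp upstream of the start by the authors' distance. That places the centre in the window printed above, which was not tested on sequence. Its RPKM was 95.5, 85.9, 125 and 82.9 in GPC and 320.3, 314 and 317 in glia. The glia libraries lay close together and far above GPC, with a log2 change of 1.67 ± 0.13 (adjusted p = 2.82e-06).

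Hepacam encodes the adhesion protein GlialCAM, which binds MLC1. It had a peak of 488 bp at 8183 bp upstream and was chosen after its values were seen. Its RPKM of 18.01, 16.1, 23.1 and 17.8 in GPC and 49.6, 50.1 and 53.3 in glia gave a log2 change of 1.41 ± 0.11. Cd44, Slc1a3, Ptprz1, Dcn and Nanog were likewise chosen after their values were seen. Cd44, a hyaluronan receptor with a peak 31666 bp upstream, rose from 8.56 ± 1.10 RPKM (SD, n = 4) to 30.3 ± 4.01 (n = 3). Slc1a3, the glutamate transporter GLAST of radial glia and astrocytes, had 2 SOX3-only peaks, 34248 and 94149 bp upstream. It also had 1 SOX3 peak shared with SOX9 or NFIA and 3 SOX9 peaks within 100 kb. It measured 293, 306, 297 and 306 RPKM in GPC and 185, 193 and 168 in glia, and fell by 0.75 ± 0.07 on the log2 scale.

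Among the oligodendrocyte precursor markers with a SOX3-only peak, Ednrb rose and Ptprz1 and Sox5 fell. Over the whole list 11 of 20 rose and 7 fell. Ednrb, the endothelin receptor of progenitors and astrocytes, had a peak 6040 bp upstream and measured 138, 152, 233 and 155 RPKM in GPC and 362, 387 and 328 in glia. Every glia library was higher, with a log2 change of 1.05 ± 0.17. Ptprz1, a receptor phosphatase of glial precursors with a peak 40673 bp upstream, fell by 0.90 ± 0.11 from 167 ± 14.6 RPKM to 91.6 ± 14.7. Its ligand pleiotrophin is encoded by Ptn, also paired with a SOX3-only peak, 39352 bp upstream. Ptn measured 632, 611, 719 and 617 RPKM in GPC and 199, 174 and 197 in glia and fell by 1.79 ± 0.09 on the log2 scale. Erbb4, a neuregulin receptor gene chosen after its values were seen, had a peak 49890 bp upstream and rose from 5.45 ± 2.02 RPKM to 28.4 ± 5.98.

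**Figure D4:**
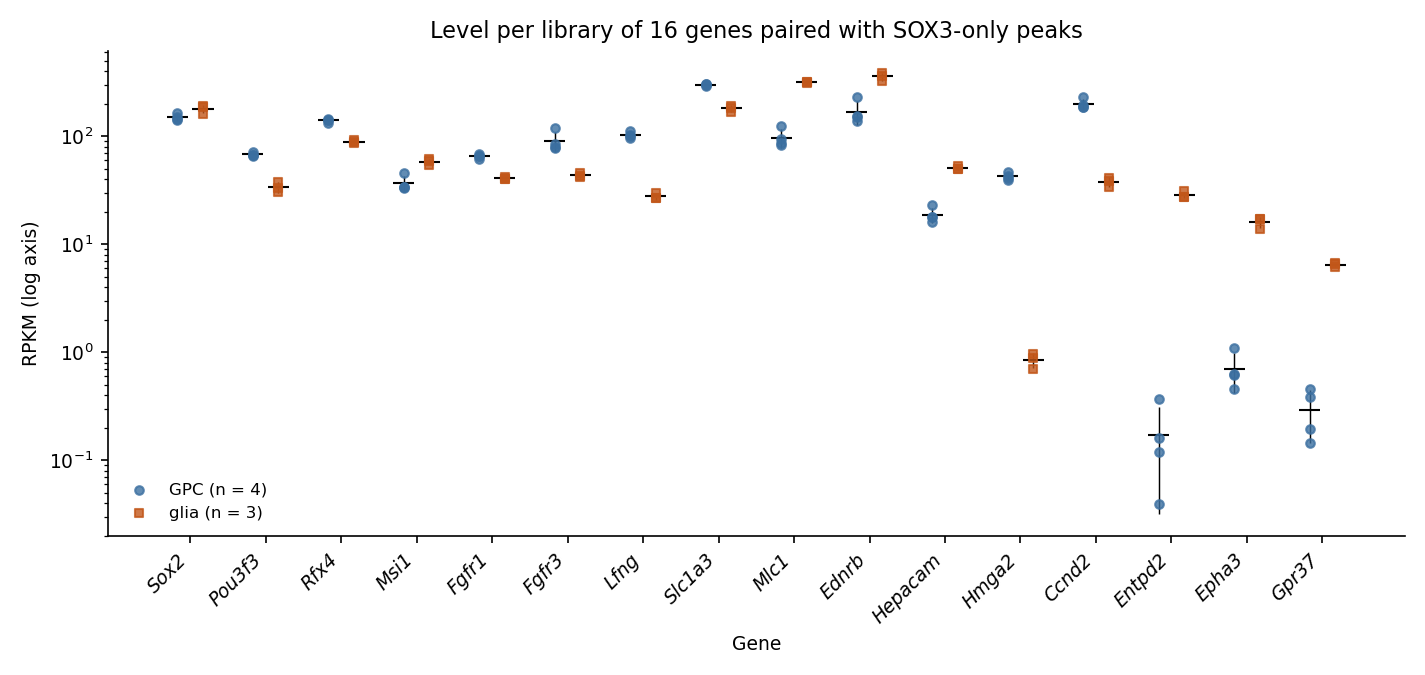
RPKM (log axis) per library for 16 genes paired with SOX3-only peaks, with GPC as blue circles (n = 4) and glia as orange squares (n = 3); black lines are means with SD. Sox2 lies at a like level in both groups, Hmga2, Ccnd2 and Lfng are lower in all glia libraries, and Entpd2, Epha3 and Gpr37 are higher in all of them.

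At start sites the peaks stood on genes of general as well as neural function. The 10 members nearest a start began with those of Sfpq (13 bp), Hmgb1 (34 bp), Top3a (57 bp), Cp (80 bp) and Mlc1 (81 bp). Then came Wbp1 (82 bp), Rfx4 (98 bp), Zfp474 (99 bp), Cox8a (111 bp) and A730013G03Rik (160 bp). Ptma (161 bp) followed these 10, and A730013G03Rik had no line in the expression table. Sfpq, an RNA splicing factor, measured 201, 216, 185 and 204 RPKM in GPC and 114, 119 and 118 in glia and fell by 0.82 ± 0.07 on the log2 scale. Top3a, a topoisomerase gene, fell by 0.83 ± 0.09, Cox8a, a subunit of cytochrome c oxidase, by 0.56 ± 0.10, and Ptma, the prothymosin gene, by 0.47 ± 0.12. Cp, the ceruloplasmin gene, fell by 0.86 ± 0.20 with overlapping groups. Hmgb1, a chromatin protein, and Wbp1 had log2 changes of −0.23 ± 0.18 and −0.08 ± 0.11 that did not pass, and Zfp474 had too few reads to be tested. Processed copies of genes such as Hmgb1, Ptma and Cox8a elsewhere in the genome can take reads, so their levels are uncertain.

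Within 1 kb the 5 genes that rose were Entpd2, Fgd4, Laptm4a, Mlc1 and Rffl. Laptm4a, a lysosomal membrane protein gene with its peak 306 bp downstream, measured 213, 230.0, 255 and 223 RPKM in GPC and 708, 692 and 706 in glia, a log2 change of 1.58 ± 0.08. The 11 genes that fell there were Hoxb3, Mtf2, Srsf4, Tmc6, Rfx4, Zmynd19, Sfpq, Top3a, Cp, Cox8a and Ptma. Fgd4, Rffl, Hoxb3, Mtf2, Srsf4, Tmc6 and Zmynd19 were chosen after their values were seen.

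The largest rises were those of Entpd2, 1190005I06Rik, Epha3, Gpr37, Ahnak, Pamr1, Fry and Itgb4. Entpd2, an ectonucleotidase that breaks down extracellular ATP and marks adult neural progenitors, had a peak 865 bp upstream at chr2:25250439-25250619. It measured 0.16, 0.0395, 0.367 and 0.119 RPKM in GPC and 27.6, 27.3 and 30.9 in glia. From near nothing it was well expressed in every glia library, with a log2 change of 7.11 ± 0.25 (adjusted p = 1.17e-08) that became 7.99 without GPC replicate 3. Gpr37, a receptor of glia with a peak 3673 bp downstream, measured 0.145, 0.381, 0.457 and 0.192 RPKM in GPC and 6.55, 6.19 and 6.65 in glia, a log2 change of 4.33 ± 0.25. The uncharacterised gene 1190005I06Rik had a peak 16082 bp downstream and went from 2.29 ± 0.211 RPKM (SD, n = 4) to 70.4 ± 19.7 (n = 3). Ahnak (4.31), a large scaffold protein, Pamr1 (3.76), a secreted protein, Fry (3.03), a scaffold of cell shape, and Itgb4 (3.02), an integrin chain, followed on the log2 scale. Their GPC levels were all under 1 RPKM.

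The mesenchymal marker Dcn, which encodes the matrix proteoglycan decorin, was also paired with a SOX3-only peak, 87819 bp upstream. It went from 12.7, 16.5, 21.4 and 18.2 RPKM in GPC to 142, 154 and 124 in glia, a log2 change of 2.96 ± 0.14. It is one of the 33 markers of other cell types whose summed level is given above. The other member of that list, the pluripotency gene Nanog, stayed at or below 1.003 RPKM and was not tested.

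The 8 largest falls were those of Hmga2, Hk2, Vash1, Ccnd2, Gsg2, Tbc1d1, Golm1 and Nuf2. Hmga2, a chromatin protein of fetal and dividing precursors, had a peak 98985 bp downstream of its start. It measured 41.3, 43.3, 39.6 and 46.7 RPKM in GPC and 0.96, 0.7 and 0.877 in glia. That was the steepest fall among the member genes, by 5.63 ± 0.11 on the log2 scale (adjusted p = 5e-10). Ccnd2, the cyclin D2 gene, with a peak 16904 bp downstream, measured 186, 186, 234 and 194 RPKM in GPC and 38.2, 41.3 and 33.7 in glia and fell by 2.44 ± 0.11. The kinetochore gene Nuf2 fell by 2.19 ± 0.10, and Gsg2, the histone kinase that RefSeq names Haspin, fell by 2.29 ± 0.12.

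Vash1, an angiogenesis inhibitor gene that acts as a tubulin carboxypeptidase, had a peak 33713 bp upstream. It measured 121, 122, 124 and 126 RPKM in GPC and 21.3, 20.6 and 21.0 in glia, and fell by 2.59 ± 0.06 on the log2 scale with no overlap. Tbc1d1, a regulator of glucose transport, fell by 2.24 ± 0.07 and Golm1, a Golgi membrane protein gene, by 2.22 ± 0.09. Hk2, the hexokinase gene, measured 6.12, 6.73, 22.2 and 6.67 RPKM in GPC and 1.85, 2.01 and 1.58 in glia. GPC replicate 3 was over 3 times the other GPC libraries, and the log2 change of −2.59 ± 0.58 became −1.89 without it, with the call kept.

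**Figure D5:**
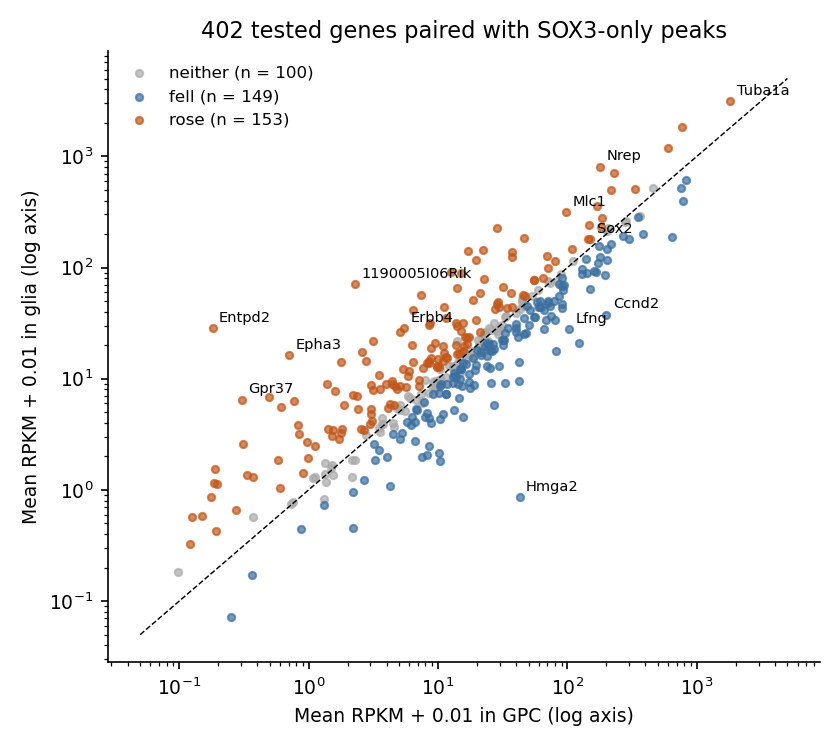
Mean RPKM in glia against mean RPKM in GPC (log axes, 0.01 RPKM added) for the 402 tested genes paired with SOX3-only peaks, coloured by call; the dashed line marks equal levels. The 153 genes that rose and the 149 that fell lie on both sides at all levels, with Entpd2 far above the line and Hmga2 far below it.

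Among the most abundant member genes, Tuba1a, the alpha-tubulin of young neural cells, measured 1826, 1760.1, 1880.4 and 1782 RPKM in GPC and 3268, 2922 and 3198 in glia and rose by 0.76 ± 0.07. Its neighbour Tuba1b measured 830.3, 729, 952 and 636 against 400.4, 354 and 446 and fell by 0.999 ± 0.14. The pair went in opposite directions, but their coding sequences are nearly alike, so reads may have been split between them. Fth1, the ferritin heavy chain, rose by 1.24 ± 0.09 and Nnat, an imprinted gene of the developing brain, by 0.96 ± 0.16. Nrep, a gene of neuronal regeneration, measured 151, 159, 257 and 151 RPKM in GPC and 802, 845 and 773 in glia and rose by 2.12 ± 0.19.

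Of the 3 genes just inside the 100 kb limit, Tspan3 rose by 0.58 ± 0.07, while Arhgap32 and C230081A13Rik each fell by 0.54, the latter with overlapping groups and with adjusted p-values of 0.0502 to 0.0933 without GPC replicate 1, 2 or 4 or glia replicate 1 or 3. Among genes with several SOX3-only peaks close together, also chosen after their values were seen, P4ha2, a collagen prolyl hydroxylase gene, measured 1.70, 2.17, 12.2 and 2.31 RPKM in GPC, so replicate 3 was again the high one, and its log2 change of −0.42 did not pass (adjusted p = 0.626). Stard13, a GTPase-activating protein gene, stayed between 4.29 and 7.95 RPKM in all libraries and did not pass either (adjusted p = 0.235).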

How the data were processed

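RNA of 4 GPC and 3 glia libraries was used, with 1 SOX3, 1 SOX9 and 1 NFIA peak list, all in mm9 per the submitters' processing notes, which also name MACS and MACS2. No source used here names the aligner, the counting tool or the use of strand, so overlapping and antisense genes cannot be told apart. Read counts per gene are as deposited by the authors, without normalization. RPKM values were computed by the authors and served for levels only. The NFIA list has a score per peak deposited by the authors, which was not used for any value. Peak genes and signed distances are the authors', and their method is not stated. As a check, 294 of 298 neighbouring SOX3 peak pairs of 1 gene differed in distance as their centres do, within 2 bp, and the sign followed the RefSeq strand (negative is upstream) in 145 of 145 pairs.

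A member shares no base with a SOX9 or NFIA peak and has an absolute distance of at most 100 kb. The count test used edgeR 4.0.16 under R 4.3.3 (TMM, filterByExpr, robust glmQLFit and glmQLFTest), glia against GPC, over 13588 genes, two-sided, with Benjamini-Hochberg adjustment at 0.05, and the standard error is the log2 change over the square root of F. The scripts were tested on simulated data. Symbols were matched directly or by RefSeq synonym (GRCm38.p6, used for names and promoters only). DESeq2 1.42.0, other filters, distances and overlap rules, and leaving out each library were tried as alternatives. The members and gene lists were chosen with earlier results of these data known. Genes were named by a rule: the 10 peaks nearest a start, genes with 3 or more peaks, the 8 largest rises and falls that passed without overlap, the 6 most abundant in each group, SOX, POU, NFI and bHLH genes, neural progenitor and neuron markers, the widest and narrowest peaks and the 3 genes on each side of 100 kb. All other genes were chosen after their values were seen. Input and H3K27Ac samples were not analysed here. One member gene is not reported here.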

Additional observations from a re-analysis of the deposited data

Results flagged for a closer look

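In 10 of 53 named genes, 1 of the 4 GPC libraries lay far from the other 3, past Dixon's 95% critical value (gap to the nearest library over the range), which chance passes in about 1 of 20 groups. Of these, 8 concerned GPC replicate 3, the deepest library. It was high for Ccnd2 (234 RPKM), Hk2 (22.2), Msi1 (45.8), Nnat (782) and Nrep (257), and low for C230081A13Rik (4.17), Cp (3.4) and Golm1 (68.2). The other 2 were single libraries with a trace of reads where the rest had none: 0.165 RPKM for Gm13212 in GPC replicate 1 and 0.0396 for Zfp474 in GPC replicate 2.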

How the results depend on the processing

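The 153 rising and 149 falling member genes became 143 to 164 and 132 to 163 when each library was left out in turn. With a replicate block (GPC replicate 4 left out) they were 149 and 147, with DESeq2 156 and 156, without a filter 157 and 155, at 50 counts or more in 3 libraries 147 and 136, with direct symbol matches 149 and 144, within 50 kb 109 and 113, and without genes that also have a SOX9 peak 124 and 120. Within 10 kb they were 29 and 44, fewer because fewer genes enter. Replicate numbers did not pair the samples: deviations of same-numbered libraries correlated at −0.035, 0.226 and 0.08, and not every library correlated best with its own number. The 668 peaks became 646 when a gap of 500 bp to SOX9 and NFIA peaks was asked for, 680 when only overlaps of at least 50% counted, 492 within 50 kb, 311 at or above the median width of the SOX3 list, and 588 without the runs of 5 or more, an alternative chosen after seeing the data. There the median width was 161 bp and the median distance 27630.5 bp. Of 39 called named genes 36 kept their call in every fit, and C230081A13Rik and Sox2 were among those that lost it in some. Signs turned only for genes that never passed. Hes3 (−0.04; −0.40 to 0.82 leaving out 1 library) was at 0.82 without GPC replicate 3, 0.12 without glia replicate 2 and 0.07 without glia replicate 3. Pou2f1 (−0.02; −0.14 to 0.13) was at 0.021 at 50 counts or more, 0.05 without GPC replicate 1 and 0.13 without glia replicate 3, and Wbp1 (−0.08; −0.20 to 0.024) was at 0.024 without glia replicate 2. The cause was not tested. None of the measured genes of the long runs had enough reads to be tested, and the cause was not tested.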
